A study of Mus musculus with 2 samples.

Results

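The genes described here build the junctions between endothelial cells: Cdh5, Pecam1, Cldn5, Esam, F11r, Jam2, Jam3, Tjp1, Ctnnb1 and Vcl. They were matched by symbol, and all 10 are among the 32285 genes measured. Messenger RNA of single cells was tagged near its 3′ end and counted as unique molecules (UMIs) in mouse carotid arteries taken 18 hours after a temporary ligation that injured the endothelium. The EC-Cx43-KO library came from CDH5 Cre+ Cx43fl/fl mice and the control library from CDH5 Cre- Cx43fl/fl mice, so both groups carry the floxed connexin 43 gene and both were injured. Each group was 1 library of pooled arteries. The Cre runs from the promoter of Cdh5, which is itself one of the 10 genes, and only the EC-Cx43-KO mice carry that transgene. The knockout is an inducible one, and the inducing agent, its timing and the animals' ages are not given in the sources used here.

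Endothelial cells hold together through adherens junctions and tight junctions, which lie intermingled along their borders. At adherens junctions VE-cadherin binds its like on the neighbouring cell and is tied to actin through catenins, while tight junctions are built from claudins and JAM family proteins held by ZO scaffolds. Arterial endothelium relies on these contacts as a barrier, and leukocytes that cross the vessel wall pass between cells by loosening some of them and binding others.

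The EC-Cx43-KO library held 8315 barcodes and 54392831 UMIs, and the control library 7298 barcodes and 48862850 UMIs. After filtering, 7236 EC-Cx43-KO and 6376 control cells were kept, and 17 barcodes occurred in both libraries. Cells were clustered without the 10 genes and without Gja1, and clusters were named only from other markers. The endothelial cell-like (EC-like) class held 578 EC-Cx43-KO and 477 control cells, with medians of 5903 and 6318 UMIs. Of 15 endothelial markers, its 3 clusters had 13 to 15 detected in at least 10% of their cells. Gja1, the targeted gene, gave 113 UMIs or 26.9 CPM (UMIs per 1000000 UMIs of the class) in EC-Cx43-KO and 85 UMIs or 21.2 CPM in control EC-like cells, with overlapping intervals. The part of Gja1 that the loxP sites remove is not given, so these 3′ tags do not check the genotype, which is used as labelled. In EC-Cx43-KO and then control cells, smooth muscle cell (SMC)-like clusters held 551 and 412, neutrophil-like 1289 and 1099, T/NK-like 198 and 141, dendritic-like 235 and 253, and those of monocytes or macrophages 1883 and 1390. Fibroblast-like clusters held 1587 EC-Cx43-KO and 1385 control cells, and B-cell-like clusters 157 and 96. Since each genotype is 1 library, differences between genotypes were neither tested nor checked by replicates. Intervals are exact, at 95%, and reflect the counting of UMIs alone, and a count of 0 takes a floor of 3 UMIs.

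Promoter sequences show what lies before the start sites of 3 genes with unlike patterns: Cldn5, whose UMIs lay almost wholly in EC-like cells, F11r, which was also found in dendritic-like and platelet-like cells, and Vcl, which was highest in SMC-like cells among the classes of at least 100 cells. They are RefSeq windows of build GRCm38.p6, on the plus strand, from 250 bases before to 50 bases after the start. Capitals mark motif matches on either strand. Of the 10 genes, 5 had a window: these 3, Tjp1 and Ctnnb1.
Cldn5, chr16:18776597-18776896: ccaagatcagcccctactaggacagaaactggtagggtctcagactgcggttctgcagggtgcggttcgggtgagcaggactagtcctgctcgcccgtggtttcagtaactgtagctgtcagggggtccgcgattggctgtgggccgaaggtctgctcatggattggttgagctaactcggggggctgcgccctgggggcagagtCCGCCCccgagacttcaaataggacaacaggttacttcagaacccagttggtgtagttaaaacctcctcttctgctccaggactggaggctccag
F11r, chr1:171437311-171437610: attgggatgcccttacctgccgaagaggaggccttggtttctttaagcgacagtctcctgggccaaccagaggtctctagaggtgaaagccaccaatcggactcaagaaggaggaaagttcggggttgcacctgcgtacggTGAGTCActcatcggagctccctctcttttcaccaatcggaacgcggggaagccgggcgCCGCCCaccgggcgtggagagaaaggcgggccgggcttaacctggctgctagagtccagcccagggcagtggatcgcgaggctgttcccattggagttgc
Vcl, chr14:20929148-20929447: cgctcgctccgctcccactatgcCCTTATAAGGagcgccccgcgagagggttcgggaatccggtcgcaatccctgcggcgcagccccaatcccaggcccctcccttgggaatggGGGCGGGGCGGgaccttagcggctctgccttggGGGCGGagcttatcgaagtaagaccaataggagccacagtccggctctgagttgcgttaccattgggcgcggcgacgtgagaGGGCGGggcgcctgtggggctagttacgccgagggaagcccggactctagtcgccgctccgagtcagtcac
Each window was searched for 5 motifs on both strands. The CArG box of serum response factor, searched by its name's consensus, was held once by the Vcl window and by 1.63% of 32841 windows. The AP-1 motif TGANTCA was found once in the F11r window and in 7.81% of all windows. The GC box, spelled GGGCGG, was found 4 times in the Vcl window, where 2 matches share a base, once in each of the others and in 35.7% of all windows. The ETS motif CCGGAA, held by 14.9% of all windows, was in none of the 3. Neither was the TATA motif TATAAA, which 13.6% of windows hold. These matches describe letters only. Cldn5 lies on chromosome 16 from 18776847 to 18778262, F11r on chromosome 1 from 171437535 to 171464603 and Vcl on chromosome 14 from 20929398 to 21033676, all on the plus strand of GRCm38. Pecam1 lies on chromosome 11 (106654217 to 106750628, minus strand), Esam on chromosome 9 (37528078 to 37538319, plus), Jam2 on chromosome 16 (84774123 to 84825928, plus) and Jam3 on chromosome 9 (27097384 to 27155421, minus). Tjp1 lies on chromosome 7 (65296165 to 65527781, minus), Ctnnb1 on chromosome 9 (120929216 to 120960507, plus) and Cdh5 on chromosome 8 (104101625 to 104144511, plus), and all 10 are protein-coding.

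Of the 10 genes, 6 were restricted to EC-like cells, meaning at least 5 times the CPM of every other class of at least 100 cells in both libraries: Cdh5, Pecam1, Cldn5, Esam, F11r and Jam2. The same rule held for 1.6% of 14217 genes. The other 4, Jam3, Tjp1, Ctnnb1 and Vcl, did not meet the rule and are called shared. Of these, Jam3 and Vcl were lower in EC-like than in SMC-like cells. UMI levels are not scaled to transcript length, so each gene is compared between classes and not with another gene.

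**Figure D1:**
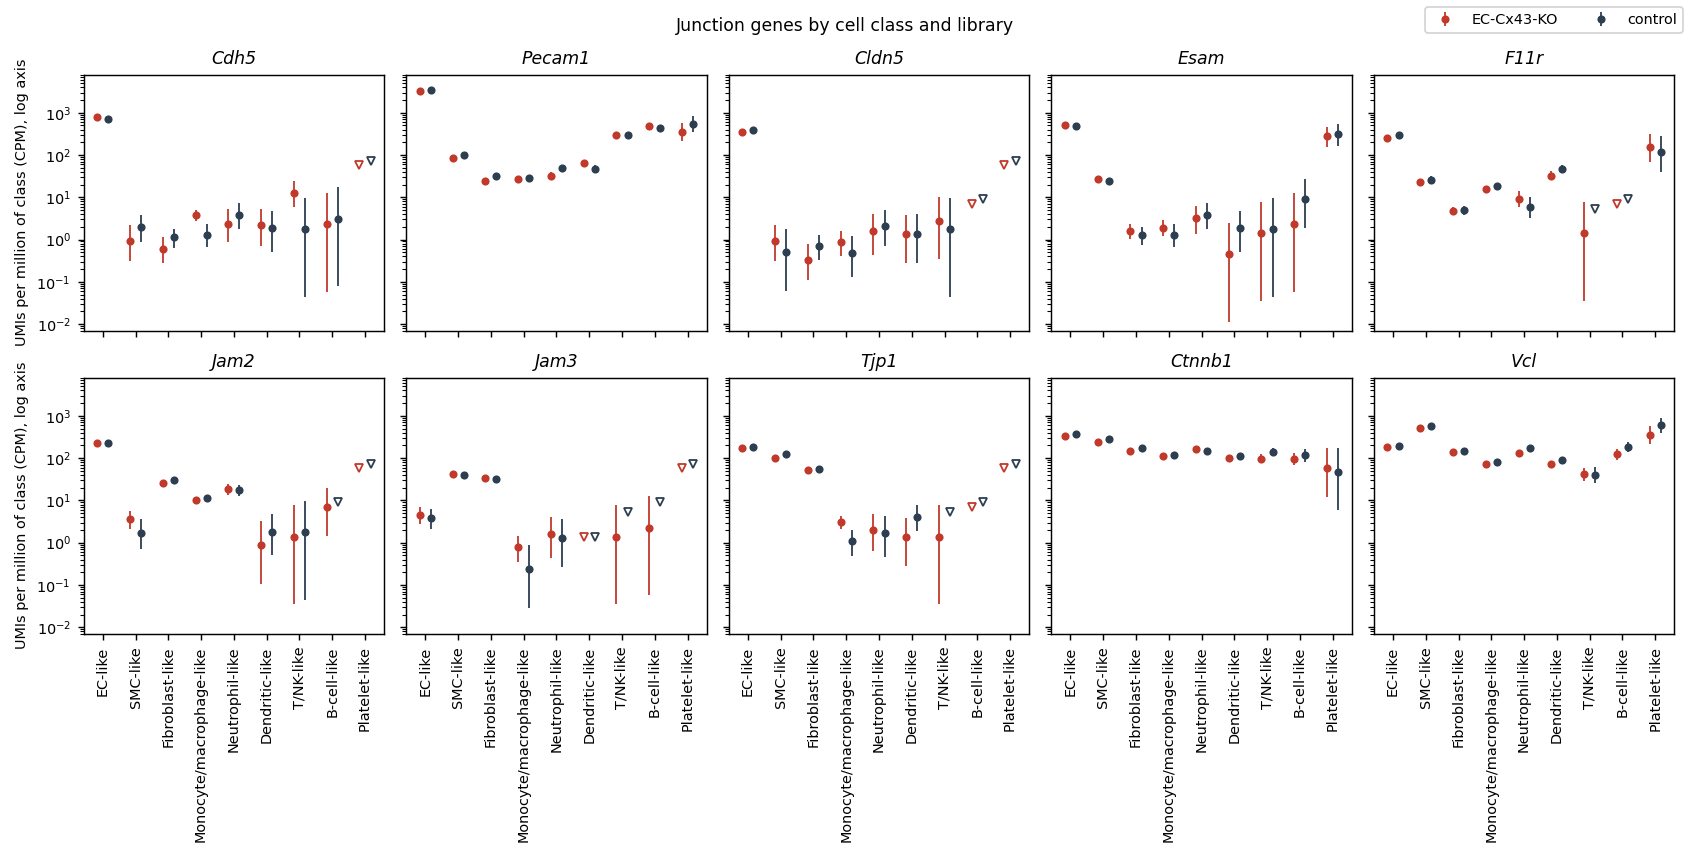
Level of each junction gene, in CPM of the class on a log axis, in 9 marker-defined classes; points are libraries (EC-Cx43-KO left, control right), bars are exact Poisson intervals and open triangles give the floor of 3 UMIs where none was counted. Cdh5, Cldn5 and Esam stand at 354 to 797 CPM in EC-like cells and at most 12.6 CPM (Cdh5 and Cldn5) or 27.6 CPM (Esam) in the 6 other classes of at least 100 cells, while Ctnnb1 and Vcl are spread over all of them.

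Cdh5 encodes VE-cadherin, the adhesion molecule of endothelial adherens junctions. It stood at 797 CPM (3346 UMIs) in EC-Cx43-KO and 728 CPM (2925 UMIs) in control EC-like cells. EC-like cells held 97.2% of all Cdh5 UMIs of the EC-Cx43-KO library and 97.7% of those of the control library. The next class was T/NK-like in the EC-Cx43-KO library, at 12.6 CPM, where 8 of 9 UMIs came from 1 cell. In the control library it was neutrophil-like, where 5 of 9 UMIs came from 1 cell. EC-like cells were thus 63.2-fold (33.2 to 138) and 192-fold (101 to 420) above the next class. After each cell was thinned to 1000 UMIs, Cdh5 was found in 51.3% of EC-Cx43-KO and 48.2% of control EC-like cells, against 0 of 907 and 0.247% of neutrophil-like cells, whose median depths were 1657 and 1852 UMIs. The 0 of 907 allows up to 0.406% of cells with a UMI at that thinned depth. Unthinned, 86.2% of EC-Cx43-KO and 85.1% of control EC-like cells had a Cdh5 UMI, against 0.465% and 0.455% of neutrophil-like cells.

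Pecam1, which encodes the adhesion molecule CD31 of endothelial borders, blood cells and platelets, was restricted but had a tail in blood cells. Its level was 3338 CPM in EC-Cx43-KO and 3516 CPM in control EC-like cells. T/NK-like cells followed at 296 and 298 CPM, and EC-like cells stood 11.3-fold (9.86 to 13) and 11.8-fold (10.1 to 13.8) above them. B-cell-like cells, too few in the control library for the rule, held 477 CPM (209 UMIs) and 431 CPM (140 UMIs). Thinned shares were 90.6% and 96.7% of EC-like cells, 34.0% and 31.1% of B-cell-like cells, 25.1% and 21.8% of T/NK-like cells and 2.98% and 3.58% of neutrophil-like cells, EC-Cx43-KO before control in each pair. Both lymphocyte-like classes thus stood far above the neutrophil-like share. In SMC-like cells Pecam1 had 83.8 and 101 CPM.

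Cldn5 encodes the claudin that seals endothelial tight junctions. It had 354 CPM (1487 UMIs) in EC-Cx43-KO and 387 CPM (1553 UMIs) in control EC-like cells, and at most 10 UMIs in each other class of either library. EC-like cells held 97.6% of its UMIs in the EC-Cx43-KO library and 98.0% in the control library. Thinned shares were 26.9% and 27.7% of EC-like cells, against 0 of 907 and 0.247% of neutrophil-like cells. As with Cdh5, few of its UMIs lay in other cells.

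Esam and F11r encode adhesion molecules of tight junctions and of platelets. Esam had 510 CPM in EC-Cx43-KO and 476 CPM in control EC-like cells. SMC-like cells came next at 27.6 CPM (147 UMIs) and 23.8 CPM (96 UMIs), an 18.5-fold and 20.0-fold distance. F11r, which encodes JAM-A, had 253 CPM in EC-Cx43-KO and 300 CPM in control EC-like cells. Dendritic-like cells came next at 32.4 CPM and 47.8 CPM, so the distance was 7.81-fold (6.16 to 10.0) in the EC-Cx43-KO and 6.28-fold (5.14 to 7.75) in the control library. The dendritic-like cells richest in F11r held 17 and 11 of its 73 UMIs in EC-Cx43-KO, and 11 and 10 of 104 in control. SMC-like cells held 22.7 and 26.2 CPM of F11r and monocyte/macrophage-like cells 15.6 and 18.6 CPM. In the EC-Cx43-KO library the intervals of dendritic-like and SMC-like cells overlapped. Of all F11r UMIs, 67.7% in the EC-Cx43-KO and 71.0% in the control library lay in EC-like cells.

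A small platelet-like group, of 46 EC-Cx43-KO and 26 control barcodes with medians of 915.5 and 1051 UMIs, separated these genes. It held Esam at 276 and 312 CPM, F11r at 158 and 120 CPM, Pecam1 at 355 and 553 CPM and Vcl at 355 and 601 CPM, from 5 to 25 UMIs each. Cdh5, Cldn5, Jam2, Jam3 and Tjp1 gave none there, with floors of 59.1 CPM in the EC-Cx43-KO and 72.1 CPM in the control library. Those floors lie below the EC-like levels of Cdh5, Cldn5, Jam2 and Tjp1 but above that of Jam3. Absence of Jam3 was therefore not detectable at this depth. Esam in the platelet-like group stood at 54.1% and 65.6% of its EC-like level, and F11r at 62.3% and 40.0%. Both are thus called restricted only among classes of at least 100 cells.

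Jam2 and Jam3 encode JAM-B and JAM-C, which bind each other across cell borders, and they fell into different classes. Jam2 had 224 CPM (939 UMIs) in EC-Cx43-KO and 229 CPM (919 UMIs) in control EC-like cells. Fibroblast-like cells came next at 26.2 and 29.8 CPM, a distance of 8.53-fold (7.58 to 9.62) and 7.69-fold (6.85 to 8.65). Fibroblast-like cells held 25.4% and 27.9% of Jam2 UMIs, beside 60.4% and 60.5% in EC-like cells. Jam3 had only 19 UMIs (4.52 CPM) in EC-Cx43-KO and 15 UMIs (3.74 CPM) in control EC-like cells. It stood at 41.7 and 40.6 CPM in SMC-like cells and at 34.1 and 32.3 CPM in fibroblast-like cells, in an order whose intervals overlapped. EC-like cells were thus at 0.108 and 0.0920 times the SMC-like level. Of Jam3 UMIs, 65.2% in the EC-Cx43-KO and 70.8% in the control library lay in fibroblast-like cells. In the EC-Cx43-KO library 129 of the 512 fibroblast-like Jam3 UMIs came from 1 cell. Schwann-like cells, present almost only in the EC-Cx43-KO library with 39 against 3 cells, held 68.8 CPM from 17 UMIs there.

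**Figure D2:**
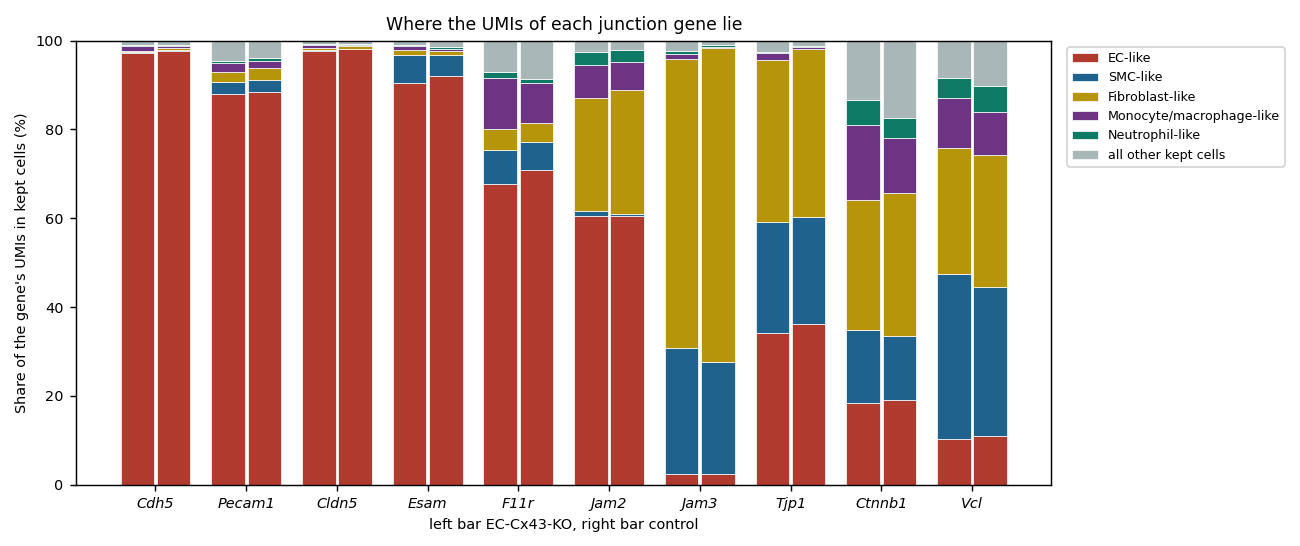
Share of each gene's UMIs over all kept cells that lay in each class, in percent, with the EC-Cx43-KO bar left of the control bar. EC-like cells hold 97.2% and 97.7% of Cdh5 but 10.4% and 10.8% of Vcl and 2.42% and 2.31% of Jam3, which is mostly in fibroblast-like cells.

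The 3 proteins on the inner side of the junction were shared. Tjp1 encodes the scaffold ZO-1, and its level was 175 CPM in EC-Cx43-KO and 184 CPM in control EC-like cells. SMC-like cells held 102 and 122 CPM and fibroblast-like cells 52.3 and 54.4 CPM. EC-like cells were 1.73-fold (1.54 to 1.93) and 1.51-fold (1.35 to 1.70) above SMC-like cells. Outside these classes, Tjp1 stayed at 4.14 CPM or less in each of the 4 other classes of at least 100 cells. It was therefore shared with vessel wall classes and scarce in blood cells.

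Ctnnb1 encodes beta-catenin, which links cadherins to actin and also acts in Wnt signalling. It had 334 CPM in EC-Cx43-KO and 371 CPM in control EC-like cells, 1.40-fold (1.30 to 1.51) and 1.33-fold (1.23 to 1.43) above SMC-like cells at 238 and 280 CPM. Its lowest level among the 7 classes was 96.6 CPM, in T/NK-like cells of the EC-Cx43-KO library. Vcl encodes vinculin, which couples adhesion sites to actin under load. SMC-like cells held 509 CPM in the EC-Cx43-KO and 592 CPM in the control library, against 180 and 192 CPM in EC-like cells, so EC-like cells were at 0.353 (0.326 to 0.383) and 0.325 (0.299 to 0.352) times the SMC-like level. Neutrophil-like cells held 130 and 173 CPM, and in the control library their interval overlapped that of EC-like cells.

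Free RNA, from cells broken in the digest, puts UMIs into droplets of other cells. The small signals were therefore read beside 10 endothelial genes outside the list. All 10 were among the markers that named the EC-like class and, unlike the junction genes, could enter the clustering. In neutrophil-like cells these 10 summed to 0.702% of their EC-like level in the EC-Cx43-KO and 0.603% in the control library. Cdh5, Cldn5 and Esam there stood at 0.30% to 0.798% of their EC-like levels, near that sum. Jam2 stood at 8.20% and 7.56%, above the highest of the 10, which was 3.30% and 3.39%. In SMC-like cells the 10 summed to 1.62% and 1.72%, with Erg alone at 20.7% and 22.9%. F11r in SMC-like cells stood at 8.98% and 8.73%, Esam at 5.42% and 4.99%, and Cdh5 and Cldn5 at 0.118% to 0.272%. The last 2 lay below the sum, but the median of the 10 endothelial genes was 0.256% and 0.0764% there. The part of free RNA in these signals was not tested. In monocyte/macrophage-like cells the sum was 0.207% and 0.186%. F11r, at 6.18% in both libraries, and Jam2, at 4.46% and 4.89%, stood above it. The highest of the 10 endothelial genes in this class stood at 0.681% and 0.480%. Pecam1 stood above it at 0.790% and 0.805%, while Cdh5 stood below it at 0.474% and 0.180%.

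Cells with several restricted genes were counted, as a description. The 6 genes were chosen as higher in EC-like cells, so a higher share there follows from that choice. No share expected from the single-gene rates was computed. After thinning to 1000 UMIs, 2 or more of the 6 restricted genes were seen in 83.5% of 520 EC-Cx43-KO and 82.5% of 423 control EC-like cells. In the SMC-like to T/NK-like classes this share was at most 1.19%, and it was 0.694% and 2.22% in B-cell-like cells. The smallest group, platelet-like, reached 11.1% of 18 and 21.4% of 14 cells.

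Over 14 points (7 classes in 2 libraries, which share their libraries and differ in depth), the genes most like each member were listed by Pearson's r of log2(CPM + 1) among 10789 genes, as a description. Cdh5 was most like Klk11 (0.99), Sox17 (0.99) and Emcn (0.98), and Cldn5 most like Klk10, Podxl and Nos3 (all 0.99). Pecam1 was most like Sdcbp2, Rasgrf2 and 4931406P16Rik (all 0.97), Esam most like 9330175M20Rik (0.98), Sncaip (0.96) and Amigo2 (0.96). F11r was most like Fnbp1l (0.94), Itprid2 (0.91) and Bnip2 (0.91), and Jam2 most like Cadps2 (0.94), Car8 (0.92) and Fgd5 (0.91). Among the shared genes, Jam3 was most like Ltbp1 (0.99) and Hspb8 (0.98), Tjp1 most like Cavin1 and Cd151 (both 0.99), Ctnnb1 most like Erg (0.98) and Clu (0.97), and Vcl most like Fbxo30 and Peli2 (both 0.97). Cdh5 and Cldn5 were also close to each other (0.985), whereas Jam2 and Jam3 were not (0.21).

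Between EC-Cx43-KO and control EC-like cells the junction genes differed little. None of the 9 with at least 100 UMIs passed 1.5-fold in either direction, a distance that 3.38% of 8285 genes passed, and their median log2 ratio was -0.07, against -0.06 over all 8285. Cdh5 was the highest, with 797 CPM in EC-Cx43-KO and 728 CPM in control cells, a log2 ratio of 0.13 (0.06 to 0.20). F11r was the lowest, with 253 CPM in EC-Cx43-KO and 300 CPM in control cells, a log2 ratio of -0.25 (-0.37 to -0.13). Ctnnb1 (-0.15), Cldn5 (-0.13) and Pecam1 (-0.07) also lay below 0, and Esam (0.10) above it, with intervals clear of 0, while those of Jam2 (-0.03), Tjp1 (-0.07) and Vcl (-0.09) reached across 0. Jam3, with 34 UMIs in all, had a log2 ratio of 0.28 with an interval from -0.78 to 1.36, too wide for a reading.

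Other features of the libraries moved with the genotype in EC-like cells. The capillary-like subcluster, led by Fabp4 and Cd36, held 44 EC-Cx43-KO and 6 control cells, and Cdh5 was 1781 and 1552 CPM in it. Without it, the log2 ratio of Cdh5 was 0.03. Without the activated cells as well, Cldn5 had 325 CPM in EC-Cx43-KO and 404 CPM in control cells, a log2 ratio of -0.31 (-0.43 to -0.20). Vcl had 159 and 193 CPM, a log2 ratio of -0.28 (-0.45 to -0.11). In the same cells the interval of Esam reached across 0 (0.03, -0.08 to 0.13), and that of Tjp1 came to lie below 0 (-0.18, -0.34 to -0.01). Xist, an RNA of female cells, stood at 123 CPM in EC-Cx43-KO and 227 CPM in control EC-like cells, the 4 Y-linked genes at 134 and 79.7 CPM and haemoglobin RNA at 1500 and 609 CPM. Among cells with Xist and no Y-linked UMIs, 155 EC-Cx43-KO and 219 control, the log2 ratio was 0.15 for Cdh5 and -0.20 for F11r. Among cells with Y-linked and no Xist UMIs, 210 and 101, it was 0.08 for Cdh5 and -0.18 for F11r. The part of haemoglobin RNA in these ratios was not tested.

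**Figure D3:**
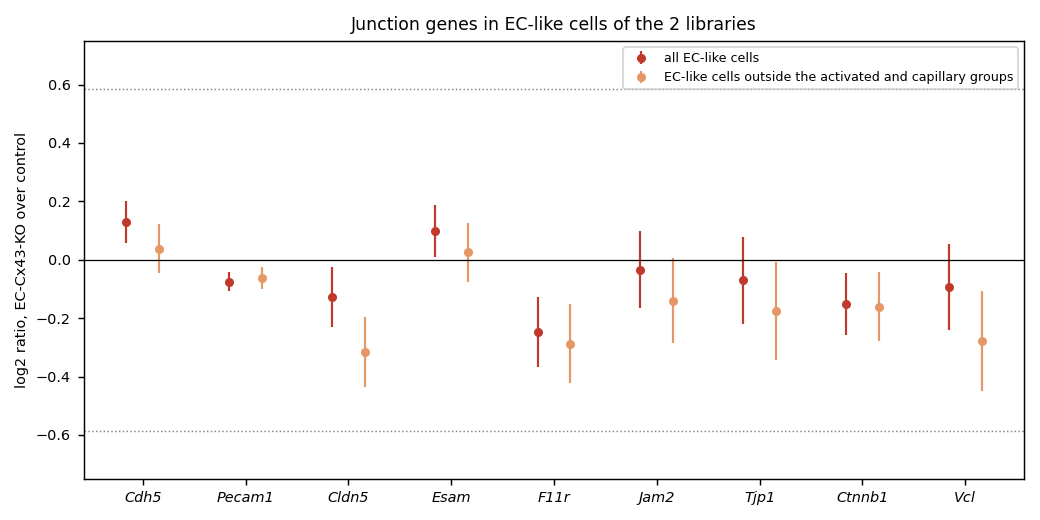
Log2 ratio of EC-Cx43-KO over control for the 9 junction genes with at least 100 UMIs, in all EC-like cells and in those outside the activated and capillary groups, with exact 95% intervals that cover counting error and dotted lines at 1.5-fold. Every point lies between the lines, from -0.31 (Cldn5 in the smaller set) to 0.13 (Cdh5 in all EC-like cells).

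In other classes, 1 gene with at least 100 UMIs passed 1.5-fold. Pecam1 in neutrophil-like cells had 32.3 CPM (81 UMIs) in the EC-Cx43-KO and 49.4 CPM (117 UMIs) in the control library, a log2 ratio of -0.61 (-1.04 to -0.19), in a class where 8.6% of 4443 genes passed that distance. Pecam1 there stood at 0.968% and 1.40% of its EC-like level, EC-Cx43-KO before control. The highest of the 10 endothelial genes used for free RNA stood at 3.30% and 3.39%. Vcl in neutrophil-like cells had 130 CPM in EC-Cx43-KO and 173 CPM in control, a log2 ratio of -0.41 (-0.63 to -0.20). In SMC-like cells 0 of 7 genes passed 1.5-fold, against 3.23% of all genes there, and Vcl, their most abundant junction gene, had a log2 ratio of -0.22 (-0.30 to -0.14). In fibroblast-like cells 0 of 7 passed, against 4.11% of all genes, and Pecam1 was lowest at -0.40 (-0.60 to -0.19). Pecam1 stood at 0.713% and 0.892% of its EC-like level there, where the 10 endothelial genes summed to 0.786% and 0.840%. The part of free RNA in the Pecam1 ratios of neutrophil-like and fibroblast-like cells was not tested. In dendritic-like cells 0 of 4 passed, against 9.79%, with F11r at -0.56 (-1.01 to -0.12) and Pecam1 at 0.46 (0.09 to 0.83). Haemoglobin RNA in dendritic-like cells stood at 2763 CPM in EC-Cx43-KO and 13.8 CPM in control, and Xist at 276 and 429 CPM, and their part in these ratios was not tested. Monocyte/macrophage-like cells had 0 of 5 past 1.5-fold, against 6.34%, and T/NK-like cells 0 of 2, against 7.6%.

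Below 100 UMIs, Cdh5 in monocyte/macrophage-like cells had 44 UMIs (3.78 CPM) in the EC-Cx43-KO and 11 UMIs (1.31 CPM) in the control library, a log2 ratio of 1.53 (0.55 to 2.63), with at most 2 UMIs in a cell. Tjp1 in these cells had 35 UMIs (3.01 CPM) in the EC-Cx43-KO and 9 UMIs (1.07 CPM) in the control library, a log2 ratio of 1.49 (0.40 to 2.73). The 10 endothelial genes used for free RNA summed to 9.19 CPM in EC-Cx43-KO and 8.33 CPM in control cells of this class, with Robo4 at 0 in both. The class was drawn unequally from its clusters, among them 492 EC-Cx43-KO and 186 control cells led by Cxcl10 and Rsad2 and 274 and 103 cells led by Lyve1 and Cd163. Haemoglobin RNA stood at 536 CPM in EC-Cx43-KO and 171 CPM in control cells of the class, and the 7 platelet markers summed to 3460 and 2310 CPM. The part of these measures in both ratios was not tested.

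Within the EC-like class, 1 subcluster was led by Ccnd1, Procr and Ano1 and is called activated here, from markers taken from earlier results of these data. It held 52 EC-Cx43-KO and 52 control cells, set against 482 and 419 other EC-like cells without the capillary-like ones. The 10 genes had no part in the clustering. Pecam1 and Jam2 were lower by at least 1.5-fold in activated cells of both libraries, and none of the 9 genes with at least 100 UMIs was higher. Over all 8285 genes 14.0% were lower and 11.9% higher by that rule, so 2 of 9 is close to what all genes gave. The median log2 ratio of the 9 was -0.32 in the EC-Cx43-KO and -0.41 in the control library, against -0.07 and -0.03 over all genes.

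Pecam1 had 2342 CPM in activated and 3694 CPM in other EC-like cells of the EC-Cx43-KO library, a log2 ratio of -0.66 (-0.74 to -0.58). In the control library it had 2478.5 CPM in activated and 3857 CPM in other cells, a log2 ratio of -0.64 (-0.70 to -0.57). Activated cells were lower by nearly the same distance in both libraries. Jam2 had 120 CPM (76 UMIs) in activated and 232 CPM (770 UMIs) in other cells of the EC-Cx43-KO library, a log2 ratio of -0.95 (-1.31 to -0.61). In the control library it had 138 CPM (127 UMIs) in activated and 255 CPM (780 UMIs) in other cells, a log2 ratio of -0.89 (-1.17 to -0.62). The other control cells were uneven, with 321 CPM in the Emb-led, 196 CPM in the Pcdh7-led and 193 CPM in the Acta2-led subcluster. The Emb-led over Pcdh7-led log2 ratio was 0.71 (0.47 to 0.95), so the control distance depended on the subcluster compared. In the EC-Cx43-KO library these subclusters stood at 248, 213 and 217 CPM.

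Cdh5 stood level between the groups. It had 747 CPM in activated and 735 CPM in other cells of the EC-Cx43-KO library, and 737 CPM in activated and 716 CPM in other cells of the control library. Those log2 ratios were 0.02 (-0.12 to 0.17) and 0.04 (-0.08 to 0.17). Esam (-0.25 in EC-Cx43-KO, -0.33 in control), F11r (-0.32 and -0.21, the control interval reaching almost to 0), Tjp1 (-0.36 and -0.46) and Ctnnb1 (-0.58 and -0.41) were lower in activated cells of both libraries, by less than 1.5-fold and with intervals below 0. Jam3 had 2 and 5 UMIs in activated cells, too few for a ratio.

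For Cldn5 the ratio differed in sign between the libraries. Cldn5 had 429 CPM (273 UMIs) in activated and 325 CPM (1080 UMIs) in other cells of the EC-Cx43-KO library, a log2 ratio of 0.40 (0.21 to 0.60). In the control library it had 341 CPM (315 UMIs) in activated and 404 CPM (1235 UMIs) in other cells, a log2 ratio of -0.24 (-0.43 to -0.06). The 2 activated cells richest in Cldn5 held 33 and 22 of the 273 UMIs in the EC-Cx43-KO library, and 33 and 30 of the 315 UMIs in the control library. Thinned shares of cells with Cldn5 were 25% of activated and 26.1% of other cells in the EC-Cx43-KO library, and 30.8% and 27.4% in the control library. These shares ran against the CPM in both libraries, so no order was read from them. Vcl had a log2 ratio of 0.15 (-0.16 to 0.44) in the EC-Cx43-KO and -0.48 (-0.76 to -0.20) in the control library. Its ratio in the EC-Cx43-KO library was -0.04 against all EC-like cells outside the activated group, so no sign was read from it.

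**Figure D4:**
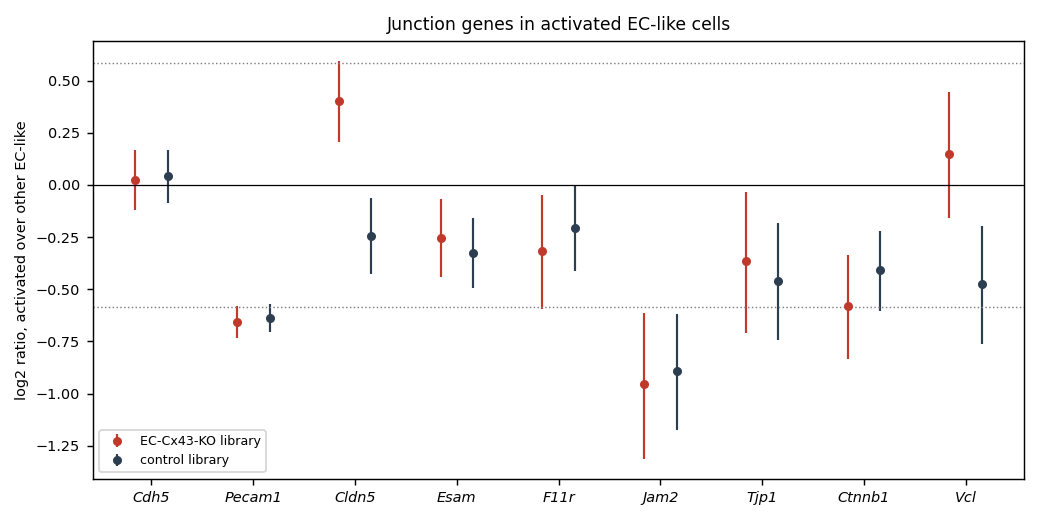
Log2 ratio of activated over other EC-like cells for the 9 junction genes with at least 100 UMIs, in the EC-Cx43-KO and the control library, with exact 95% intervals that cover counting error and dotted lines at 1.5-fold. Pecam1 (-0.66 and -0.64) and Jam2 (-0.95 and -0.89) lie below the lower line in both libraries, and Cldn5 lies at 0.40 in the EC-Cx43-KO and -0.24 in the control library.

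Other measures differed between these groups. Activated cells were deeper, with medians of 10364.5 UMIs in the EC-Cx43-KO and 15752 UMIs in the control library, against 5675.5 and 5612 UMIs in other EC-like cells. The 10 endothelial genes outside the list summed to 2671 and 3114 CPM in activated cells, against 4747 and 4892 CPM in others. In each library 7 of the 10 were lower. They were among the markers that named the class and could enter the clustering, so their values describe the subcluster. Leukocyte markers, all 6 detected, summed to 381 CPM in EC-Cx43-KO and 140 CPM in control activated cells, against 156 and 151 CPM in others. SMC markers, of which 5 to 7 of 8 were detected and Des was at 0 throughout, summed to 197 and 179 CPM in activated cells, against 141 and 188 CPM in others. Fibroblast markers, all 8 detected, summed to 387 CPM in EC-Cx43-KO and 324 CPM in control activated cells, against 672 and 737 CPM in others. Haemoglobin RNA stood at 529 and 7.59 CPM in activated cells, against 1789 and 791 CPM in others. The part of depth and of other cells' RNA in these ratios was not tested. Against deep other EC-like cells only, the log2 ratios were -0.69 and -0.68 for Pecam1 and -0.97 and -0.96 for Jam2, in the EC-Cx43-KO and the control library. In that comparison the intervals of Esam in the EC-Cx43-KO library (-0.16, -0.35 to 0.03) and of F11r in the control library (-0.18, -0.39 to 0.03) reached across 0.

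The restricted genes also varied over the other EC-like subclusters. Pecam1 was lowest in capillary-like cells, at 1032 CPM in EC-Cx43-KO and 1164 CPM in control, and highest in the subcluster led by Emb and Ahsg, at 3864 and 4054 CPM. Cdh5 was highest in capillary-like cells and between 686 and 836 CPM in every other subcluster. Jam2 was lowest in activated cells in both libraries, and Cldn5 in capillary-like cells had 560 CPM in EC-Cx43-KO but 83.1 CPM, from 3 UMIs in 6 cells, in control. With 44 against 6 cells, that subcluster came mostly from 1 library. The subcluster led by Acta2 and Mt1 was shallow, with medians of 1369 and 1338 UMIs.

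**Figure D5:**
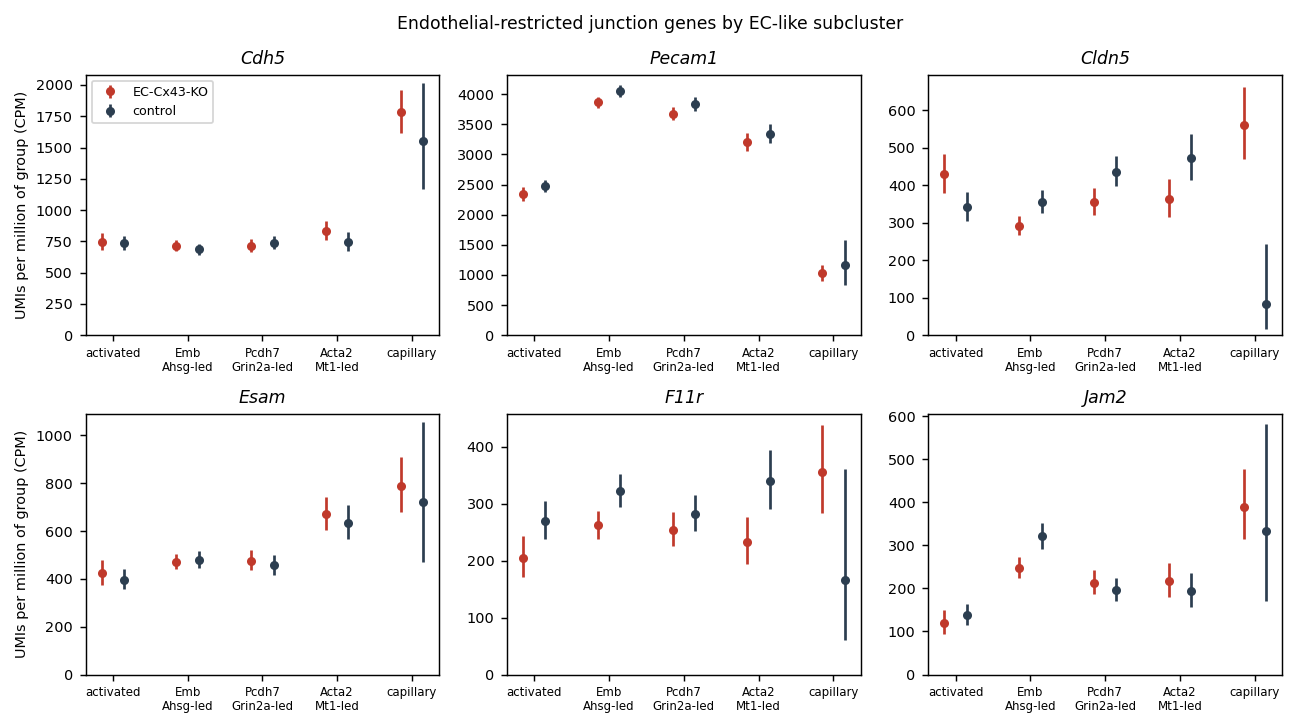
Level of the 6 restricted junction genes, in CPM of the subcluster, in 5 EC-like subclusters, with the EC-Cx43-KO point left of the control point and exact Poisson intervals. Pecam1 is lower in activated (2342 and 2478.5 CPM) and capillary-like cells (1032 and 1164 CPM) than in the others, and Cdh5 stands at 1781 and 1552 CPM in capillary-like cells.

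Other genes of the junction were read from a list of 56 adherens and tight junction components, regulators and linked connexins, of which 55 are in the files and 43 had at least 100 UMIs in EC-like cells. Of 50 that could be judged, 7 were restricted to EC-like cells, beside 1.6% of all genes. These were Ocln and Cldn15, tight junction proteins, Cgnl1, a junction scaffold, Ptprb, the phosphatase that binds VE-cadherin, Icam2, a ligand of leukocyte integrins, and the connexin genes Gja5 and Gja4. Ptprb was also one of the markers used to name the class. All listed genes could enter the clustering that defined it, and the list was chosen with earlier results of these data known. The share of 7 in 50 is therefore a description only. Between EC-Cx43-KO and control EC-like cells 0 of the 43 were higher and 0 lower by 1.5-fold, where 1.51% and 1.87% of all genes were, and their median log2 ratio was -0.11. Gja5, a connexin of arterial endothelium, was the lowest, with 562 CPM in EC-Cx43-KO and 739 CPM in control cells, a log2 ratio of -0.39 (-0.47 to -0.32). Plekhg5 (-0.33) and Ocln (-0.33) followed, and the highest were Pvr (0.39), Nectin2 (0.31) and Pdcd10 (0.29). The intervals of Plekhg5, Pvr and Nectin2 reached across 0, while those of Ocln and Pdcd10 lay clear of it.

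In activated cells 4 of the 43 were higher and 9 lower by 1.5-fold in both libraries, beside 11.9% and 14.0% of all genes. Unlike the 10 genes above, these could enter the clustering, so their values describe the subcluster. Actn1, an actin crosslinker, had 618 CPM in activated and 313 CPM in other cells of the EC-Cx43-KO library, and 694 and 342 CPM in the control library, log2 ratios of 0.98 and 1.02. Actn4, its close relative, had log2 ratios of 0.86 and 0.85, Rapgef1, an exchange factor of Rap GTPases, 0.76 and 0.65, and Pvr, a nectin-like adhesion molecule, 1.80 and 1.02. Gja4 had 34.6 CPM in activated and 134 CPM in other cells of the EC-Cx43-KO library, and 46.6 and 144 CPM in the control library, log2 ratios of -1.95 and -1.62. Ptprb had log2 ratios of -1.61 and -1.45, Gja5 -1.75 and -1.01, and Plekhg5 -0.92 and -1.35.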

How the data were processed

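The deposited values are raw UMI counts per gene and barcode for 2 libraries, which the authors made with Cell Ranger 8.0.1, per the submitters' processing notes. Those notes also list the mm10 genome and STAR, whose version is not given. Everything below was computed from those counts here. Barcodes under 300 detected genes or over 15% mitochondrial RNA were dropped, and the barcodes that ranked highest for simulated doublets among their 30 neighbours, 476 EC-Cx43-KO and 363 control, were removed at an assumed rate of 0.008 per 1000 cells. The 2000 most variable genes, without the 10 junction genes and Gja1, were reduced to 30 components and clustered with the Leiden method at resolution 1, giving 27 clusters. Clusters were named from markers, with at least 3 detected, and 1 cluster of 673 EC-Cx43-KO and 1094 control cells, led by Fabp5, Ppbp, Pf4 and Spp1, stayed unnamed because more markers of another class than of its own stood among its 10 leading genes. EC-like cells were clustered again at resolution 0.6.

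Class sums within a library were divided by their total to give CPM. Levels have exact Poisson, ratios exact conditional binomial and shares exact Clopper-Pearson intervals. Shares of cells were taken after thinning to 1000 UMIs, leaving out shallower cells, 58 EC-Cx43-KO and 54 control among EC-like and 382 and 289 among neutrophil-like ones. A gene with at least 100 UMIs counts as called at 1.5-fold. The 10 genes, the lists and the activated markers were chosen with earlier results of these data known. Besides the 10 genes, the text names, of the wider junction list, the 4 highest and 4 lowest in activated cells, the 3 highest and 3 lowest between genotypes and those restricted to EC-like cells, and for likeness the 3 genes nearest each restricted and the 2 nearest each shared member with at least 500 UMIs. Alternatives covered cell limits, doublets, clustering, scaling, free RNA, cell subsets and thresholds. The ratio and call steps were tested on simulated counts. Positions are from the GENCODE annotation of GRCm38. Clustering ran on leidenalg 0.10.2 with igraph 0.11.9 and scikit-learn 1.9.0. Intervals came from SciPy 1.17.1, tables from pandas 2.3.3 and NumPy 2.4.6 under Python 3.11.15, and figures from matplotlib 3.10.9.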

Additional observations from a re-analysis of the deposited data

Results flagged for a closer look

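The ratio of activated over other EC-like cells had opposite signs in the 2 libraries for Cldn5, the claudin of endothelial tight junctions, with a log2 ratio of 0.40 in the EC-Cx43-KO library and -0.24 in the control library. Both intervals lay clear of 0, but they cover counting error only, and the difference between the libraries was not tested. Of the 273 Cldn5 UMIs of activated EC-Cx43-KO cells, 33 and 22 came from 2 of the 52 cells. Pecam1, which encodes CD31, had a log2 ratio of EC-Cx43-KO over control of 0.46 in dendritic-like cells, from 148 and 104 UMIs, and of -0.07 in EC-like cells, and this difference was not tested either. In dendritic-like cells haemoglobin RNA stood at 2763 CPM in the EC-Cx43-KO and 13.8 CPM in the control library.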

How the results depend on the processing

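No paired analysis was possible because each genotype had 1 library, and no replicate could be left out. The 6 restricted genes were the same under 9 of 10 settings, and at 10-fold 4 of them remained, Cdh5, Pecam1, Cldn5 and Esam. Between EC-Cx43-KO and control EC-like cells, where no junction gene passed 1.5-fold, counting all 10 genes without the minimum of 100 UMIs put 1 higher with single-cell CPM averaged over cells, 1 lower in activated cells only and 1 lower in cells with Xist and no Y-linked UMIs. In each case it was Jam3, whose UMIs are too few for a reading (2 and 5 in activated cells), and none of the 9 genes with at least 100 UMIs passed. Of the wider list, 1 gene was higher with averaged CPM, 1 in activated cells only and 2 in cells with Y-linked and no Xist UMIs, and lower were 1 with doublets kept, 5 in activated cells only, 1 in Xist cells, 1 in Y-linked cells and 2 with genes from 20 UMIs. Of the 2 genes lower in activated cells of both libraries, 1 was left with averaged CPM (Jam2, as Pecam1 came to -0.53 in the EC-Cx43-KO library), 1 with median-of-ratios scaling (Jam2, as Pecam1 came to -0.57 in the control library) and 0 at 2-fold. At 2-fold the wider list had 1 gene higher and 3 lower in activated cells. The log2 ratio of EC-Cx43-KO over control kept its sign in all 14 settings for Cdh5, Pecam1, Esam, F11r, Tjp1 and Ctnnb1, in 13 for Cldn5, which was 0.33 in activated cells, in 12 for Vcl and in 11 for Jam2. For activated over other cells, Cldn5 kept its sign in all 13 settings in both libraries, while Vcl in the EC-Cx43-KO library kept it in 10 (-0.15 to 0.46). The cause was not tested. Chosen after seeing the data were 3 settings: deep other EC-like cells, EC-like cells without the shallow subcluster, and the unnamed cluster counted as monocyte/macrophage-like. Depth limits Jam3 in EC-like cells and every gene in the platelet-like group.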
